A study of Homo sapiens with 4 samples.

Results

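Heme synthesis enzymes and iron uptake genes were examined in HEK293, a long-established line of human embryonic kidney origin, after culture in high or low glucose. The 9 genes are TFRC and SLC11A2 for iron uptake and ALAS1, ALAD, UROS, UROD, CPOX, PPOX and FECH for heme synthesis, chosen by gene symbol among the 19775 genes that had a probe set naming a single gene. All 26 single-gene probe sets of these genes are shown, of 41091 such probe sets in the table. A probe set is a group of short probes on the array that together give the signal of 1 transcript region. Cells were kept for 7 days in DMEM with 10% fetal calf serum. The medium held 450 mg/dl glucose (high glucose, 2 arrays) or 100 mg/dl glucose (low glucose, 2 arrays). Total RNA was taken, and biotin-labelled cRNA was hybridised to single-colour Affymetrix arrays. Replicates are biological according to the labels, which do not describe separate cultures, so p-values measure only the spread between these samples, which may be technical. HEK293 was transformed with adenovirus DNA, so it stands for a cultured line and not for kidney tissue.

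Heme is an iron-containing porphyrin that serves in cytochromes, oxygen carriers and many enzymes. Its synthesis starts in mitochondria with the joining of glycine and succinyl-CoA by ALAS1, the rate-limiting enzyme outside red cells, continues in the cytosol through ALAD, UROS and UROD, and returns to mitochondria for CPOX, PPOX and FECH, which inserts the iron. TFRC, the transferrin receptor, takes up transferrin-bound iron by endocytosis, and SLC11A2, also known as DMT1, carries the released ferrous iron out of the endosome. The transcripts of TFRC and of certain SLC11A2 forms hold iron-responsive elements through which cellular iron sets their stability.

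The question put to these genes is whether their transcripts respond to the glucose concentration of the medium. TFRC fell in high glucose in all 3 probe sets bright enough to be tested, and CPOX rose 1.51-fold in its 1 probe set. ALAS1 stood at nearly the same signal on all 4 arrays. UROS had probe sets called in opposite directions: its brightest fell 1.33-fold, while the others rose 2.18-fold and 2.43-fold, the largest rises among the 21 member probe sets tested. SLC11A2 and FECH also had probe sets called in both directions. The members thus had no direction in common.

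Probe sets were tested with limma where their mean log2 signal over the 4 arrays reached the median of all probe sets, equal to a signal of 32.9, and a call means an adjusted p under 0.05. Of the 26 probe sets, 21 passed this filter, with at least 1 for each of the 9 genes. Among these 21, 6 were called higher in high glucose, 6 were called lower and 9 were not called. Over all 27307 tested probe sets, 23.1% were called higher and 27.2% lower, so the counts of members lay near the background. The median log2 difference of the 21 was -0.0047, beside -0.06 over all tested probe sets, and their median absolute difference was 0.41 log2 units, beside 0.41 over all. Counted by the brightest probe set of each gene, 2 of 9 genes were higher (UROD and CPOX) and 2 lower (TFRC and UROS), beside 23.8% and 32.6% of 12242 genes.

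**Figure D1:**
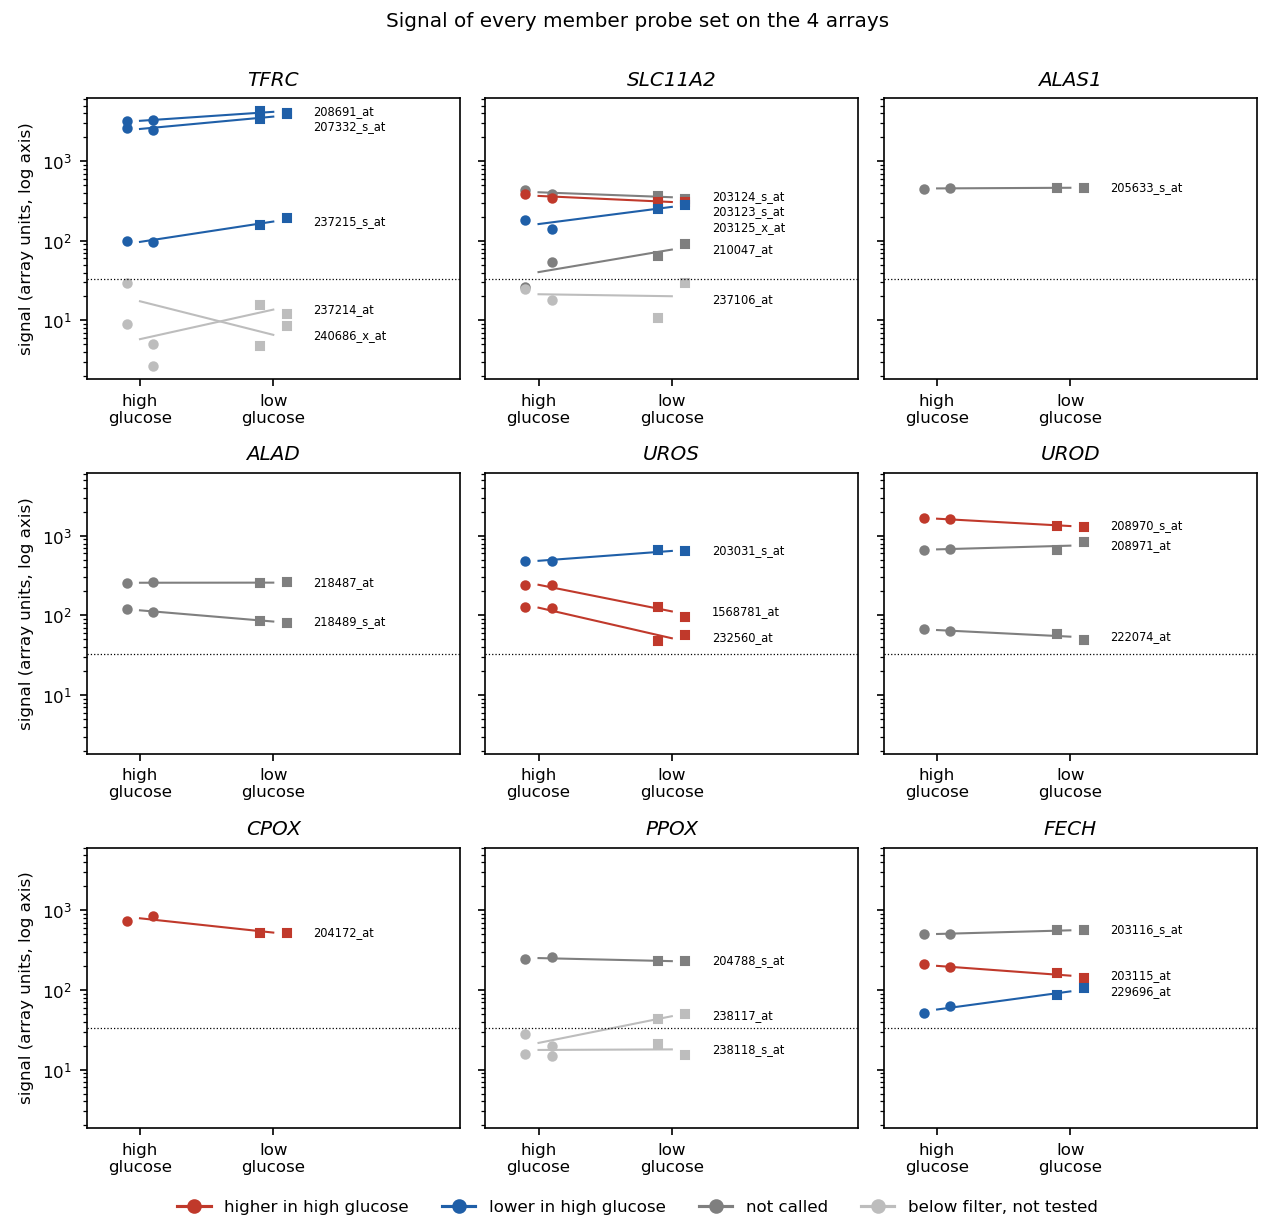
Signal of every member probe set on each array (y axis, array units, log scale), with high glucose arrays as circles on the left and low glucose arrays as squares on the right of each panel. Lines join group means, colours give the call, and the dotted line marks the filter signal of 32.9. TFRC lines slope the same way in the 3 probe sets above the filter, while UROS, SLC11A2 and FECH hold probe sets called in both directions.

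The arrays share features that bear on these values. The 2% trimmed mean was set to about 200.02 signal units on each array before deposit, and median signals were 33.3 and 33.8 on the high glucose arrays and 38.7 and 36.7 on the low glucose arrays. Median centring of the arrays moved the median of all tested probe sets by 0.17, to 0.11, and changed the share of higher calls to 63.0% from 45.9% with the authors' scaling. Poly-A spikes are bacterial transcripts that can be added to RNA before labelling. Their 24 probe sets were higher in high glucose by a median of 1.94 log2 units, and the 6 ribosomal RNA probe sets by 1.73. Median spike signals were 151 and 139 on the high glucose arrays. On the low glucose arrays they were 38.1 and 44.1, near the medians of all probe sets there. The 18 hybridisation control probe sets had a median signal of 486 on high glucose replicate 1 and 875 on replicate 2, against 869 and 891 on the low glucose arrays. Without high glucose replicate 1, 4 member probe sets were called higher and 5 lower. The part of these control differences in the results below was not tested. Of 8 genes listed for HEK293, 7 passed the filter, NEFL, PAX2, LHX1, CDH2, VIM, KRT8 and KRT18, while NEFM was below it. PAX2 lay near the filter, with 35.7 and 34.6 in high glucose, against 37.6 and 54.6 in low glucose. LHX1 passed only through high glucose, with 67.3 and 75.1 there, against 32.5 and 21.0 in low glucose. The summed signal of the 8 was 21955 and 24716 on the high glucose arrays and 20039 and 20453 on the low glucose arrays. Single genes within this sum moved in opposite directions. VIM had 5567 and 5971 in high glucose, against 10580 and 11041 in low glucose. KRT8 had 5545 and 6493 in high glucose, against 2845 and 2897 in low glucose, and KRT18 had 8315 and 9775 in high glucose, against 4293 and 4309 in low glucose.

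Promoter sequences are shown for the iron uptake gene that fell, for the entry enzyme, which was not called, and for the enzymes whose brightest probe set rose, so that the letters before their start sites can be compared. They run from 250 bases before to 50 bases after the start site and come from RefSeq on GRCh38.p14, where 8 of the 9 genes had an entry. The TFRC window is chr3:196082041-196082340 on the minus strand, that of ALAS1 chr3:52197833-52198132 on the plus strand, that of UROD chr1:45012004-45012303 on the plus strand and that of CPOX chr3:98593562-98593861 on the minus strand. Capitals mark matches, on either strand, to the motifs searched.
TFRC: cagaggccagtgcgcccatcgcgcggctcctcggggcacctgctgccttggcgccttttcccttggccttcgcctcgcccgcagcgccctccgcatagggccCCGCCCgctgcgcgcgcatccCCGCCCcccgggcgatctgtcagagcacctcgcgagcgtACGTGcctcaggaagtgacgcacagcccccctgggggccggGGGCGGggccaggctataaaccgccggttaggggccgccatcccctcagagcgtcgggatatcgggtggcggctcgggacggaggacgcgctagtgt
ALAS1: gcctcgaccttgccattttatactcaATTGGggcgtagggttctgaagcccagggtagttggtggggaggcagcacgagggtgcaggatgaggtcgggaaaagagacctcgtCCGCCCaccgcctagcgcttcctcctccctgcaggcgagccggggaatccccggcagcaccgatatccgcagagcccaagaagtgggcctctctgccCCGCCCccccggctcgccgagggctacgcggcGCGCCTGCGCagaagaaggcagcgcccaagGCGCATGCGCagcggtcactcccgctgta
UROD: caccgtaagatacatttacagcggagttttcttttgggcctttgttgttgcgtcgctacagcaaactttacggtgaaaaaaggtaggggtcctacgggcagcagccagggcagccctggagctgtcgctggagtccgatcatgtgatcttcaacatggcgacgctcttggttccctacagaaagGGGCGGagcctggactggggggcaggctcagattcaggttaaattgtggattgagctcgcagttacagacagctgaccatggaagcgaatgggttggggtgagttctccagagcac
CPOX: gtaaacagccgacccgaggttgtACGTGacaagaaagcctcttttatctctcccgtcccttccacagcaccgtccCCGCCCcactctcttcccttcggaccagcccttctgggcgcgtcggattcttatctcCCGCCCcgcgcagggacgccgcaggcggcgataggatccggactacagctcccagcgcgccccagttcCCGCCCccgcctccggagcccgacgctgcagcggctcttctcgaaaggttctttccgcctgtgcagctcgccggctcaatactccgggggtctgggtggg

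The 7 motifs searched on both strands were GGGCGG (the GC box bound by Sp1), the motif of the nuclear respiratory factor NRF1, TGACNNNGC (the antioxidant response element), TGATGNAA (bound by ATF4 with C/EBP partners), CCAAT, the E-box CACGTG, and ACGTG, the core of the hypoxia response element, which also lies inside CACGTG. All 4 printed promoters hold GGGCGG, as do 45.0% of 35116 promoters of this length. ACGTG is in the TFRC and CPOX windows, in 1 of PPOX and in 21.4% of all promoters. Among the members the NRF1 motif is in the ALAS1 window only, at 2 places, and it is in 5.78% of all promoters. CCAAT is in 7 of the 13 member windows, those of SLC11A2, ALAS1, ALAD and PPOX, and in 34.6% of all promoters. Over the same windows, TGATGNAA matched 1 of SLC11A2, TGACNNNGC matched the 1 of FECH, and CACGTG matched none. A match describes the letters and says nothing of binding in these cells.

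TFRC is the main entry for iron in most dividing cells. Its brightest probe set, 208691_at, had signals of 3186 and 3247 in high glucose, against 4265 and 4078 in low glucose. The next, 207332_s_at, had 2632 and 2449 in high glucose, against 3388 and 3877 in low glucose. The third, 237215_s_at, had 98.5 and 95.4 in high glucose, against 156 and 193 in low glucose. The groups did not overlap in any of these, with both high glucose arrays below both low glucose arrays. How often groups are separate over all tested probe sets was not counted, here or for the genes below. Separation alone is therefore not read as a response to glucose. It also held for ALAS1, which was not called. The falls were 1.30-fold, 1.43-fold and 1.79-fold, or -0.37 ± 0.06, -0.51 ± 0.08 and -0.84 ± 0.16 log2 units (± standard error; adjusted p = 0.0023, 0.0019 and 0.0045). A larger absolute difference was found in 53.7%, 40.2% and 18.5% of all tested probe sets, in the same order. After median centring the brightest probe set stood at -0.20 and was not called (adjusted p = 0.076), while the other calls remained. In bulk RNA, fewer cells with a transcript and less of it per cell cannot be told apart. The poly-A spikes differed in the opposite direction on the same arrays, and their bearing on the TFRC values was not tested.

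The remaining TFRC probe sets lay below the filter and were not tested. 237214_at had 8.97 and 2.66 in high glucose, against 15.4 and 11.9 in low glucose. 240686_x_at had 29.8 and 5.07 in high glucose, against 4.73 and 8.45 in low glucose, and its groups overlapped. Both are dim and carry no statement on TFRC.

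SLC11A2 gave a divided picture. Probe set 203123_s_at had 384 and 349 in high glucose, against 305 and 309 in low glucose, a rise of 0.25 ± 0.09 log2 units (adjusted p = 0.047). Probe set 203124_s_at, the brightest, had 429 and 386 in high glucose, against 368 and 338 in low glucose, and was not called (0.21 ± 0.09, adjusted p = 0.098). In both, the high glucose arrays lay above the low glucose arrays. Probe set 203125_x_at went the other way, with 185 and 140 in high glucose, against 254 and 280 in low glucose, a fall of 1.66-fold (-0.73 ± 0.15 log2 units, adjusted p = 0.0065). The dimmer 210047_at had 26.5 and 54.4 in high glucose, against 63.9 and 91.4 in low glucose, and was not called (-1.01 ± 0.38, adjusted p = 0.062). Leaving out high glucose replicate 1 moved this value to -0.49, not called (adjusted p = 0.28). Without high glucose replicate 2 it stood at -1.53 and was called (adjusted p = 0.013), and without low glucose replicate 1 at -1.27, also called (0.043). The suffix _x_at marks probes that may also match other transcripts.

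The rise in 203123_s_at rests on all 4 arrays. It was not called without high glucose replicate 1 (adjusted p = 0.26), high glucose replicate 2 (0.059), low glucose replicate 1 (0.10) or low glucose replicate 2 (0.082). The call also ended with no filter on dim probe sets (adjusted p = 0.086) and without the intensity trend (0.098). The fall in 203125_x_at kept its call without each array in turn. The fifth probe set, 237106_at, did not reach the filter and had signals of 24.6 and 18.0 in high glucose, against 10.7 and 29.6 in low glucose. The RefSeq promoter table lists 4 start sites for SLC11A2, and which transcript each probe set reads was not analysed here.

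ALAS1, the entry enzyme of the pathway, was measured by 205633_s_at alone. Its signals were 454 and 457 in high glucose, against 461 and 467 in low glucose. The 4 values lie close together, with both high glucose arrays just below both low glucose arrays. The difference was -0.03 ± 0.07 log2 units and was not called (adjusted p = 0.77), and after median centring it stood at 0.14, also not called (adjusted p = 0.21). A larger absolute difference was found in 96.5% of all tested probe sets. ALAS2, the erythroid form, had a brightest probe set at 8.76 and 11.2 in high glucose, against 16.1 and 23.5 in low glucose, below the filter.

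ALAD, which condenses aminolevulinic acid to porphobilinogen in the cytosol, had 255 and 260 in high glucose, against 256 and 260 in low glucose, in its brighter probe set 218487_at. These groups overlapped, and the difference was -0.0047 ± 0.0929 log2 units (adjusted p = 0.97). Its other probe set, 218489_s_at, had 120 and 112 in high glucose, against 86.2 and 81.4 in low glucose. The groups were separate there, but the difference of 0.47 ± 0.17 log2 units missed the threshold (adjusted p = 0.054). It passed after quantile normalization, median centring and cyclic loess and without the intensity trend, with adjusted p between 0.014 and 0.21 over all alternatives.

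UROS, which closes the linear tetrapyrrole into uroporphyrinogen III, had 485 and 486 in high glucose, against 655 and 636 in low glucose, in its brightest probe set 203031_s_at. Probe set 1568781_at had 244 and 241 in high glucose, against 129 and 95.4 in low glucose. Probe set 232560_at had 127 and 123 in high glucose, against 47.4 and 56.0 in low glucose. The groups were separate in each, with high glucose below low glucose in the first of these and above it in the others. The log2 differences were -0.41 ± 0.07, 1.13 ± 0.17 and 1.28 ± 0.20 (adjusted p = 0.0019, 0.0013 and 0.0016). All 3 kept direction and call under each alternative in which they were tested. Only 6.19% of tested probe sets had a larger absolute difference than 232560_at.

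UROD, the decarboxylase that yields coproporphyrinogen, was read by 3 probe sets above the filter. Probe set 208970_s_at, the brightest, had 1670 and 1612 in high glucose, against 1346 and 1305 in low glucose, a rise of 1.24-fold (0.31 ± 0.06 log2 units, adjusted p = 0.0041). It kept this call under all alternatives tried. Probe set 208971_at had 665 and 686 in high glucose, against 663 and 842 in low glucose, and overlapped between groups (-0.15 ± 0.11, adjusted p = 0.30). Without low glucose replicate 1 it stood at -0.32 and was called (adjusted p = 0.014), and without low glucose replicate 2 at 0.03. Probe set 222074_at had 66.7 and 64.3 in high glucose, against 58.5 and 49.7 in low glucose, and was not called (adjusted p = 0.34).

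CPOX, the oxidase that makes protoporphyrinogen in the intermembrane space, had 736 and 856 in high glucose, against 526 and 527 in low glucose. Both high glucose arrays lay well above the low glucose pair. The rise was 0.59 ± 0.08 log2 units (adjusted p = 0.0011), and it kept its call under all alternatives tried, with log2 differences from 0.48 to 0.76. It rests on 204172_at alone.

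PPOX, which oxidises protoporphyrinogen to protoporphyrin, had 242 and 262 in high glucose, against 231 and 230 in low glucose, in 204788_s_at. The groups were separate by a small margin and the difference was not called (0.13 ± 0.10 log2 units, adjusted p = 0.33). Of its dim probe sets, 238117_at had 28.4 and 14.9 in high glucose, against 43.1 and 50.7 in low glucose. The other, 238118_s_at, had 15.6 and 19.8 in high glucose, against 20.7 and 15.2 in low glucose. Neither was tested.

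FECH, ferrochelatase, had 508 and 503 in high glucose, against 562 and 563 in low glucose, in its brightest probe set 203116_s_at. The groups were separate, but the difference of -0.15 ± 0.07 log2 units was not called (adjusted p = 0.091). Probe set 203115_at had 210 and 193 in high glucose, against 162 and 141 in low glucose, a rise of 0.41 ± 0.13 log2 units (adjusted p = 0.036). Probe set 229696_at had 51.5 and 62.4 in high glucose, against 87.4 and 105 in low glucose, a fall of 1.69-fold (-0.76 ± 0.22 log2 units, adjusted p = 0.025). Both calls depended on single arrays and on settings. The rise was lost without high glucose replicate 1 (adjusted p = 0.17), high glucose replicate 2 (0.069) or low glucose replicate 2 (0.12), and also with no filter (0.052) and without the intensity trend (0.054). The fall was lost without high glucose replicate 1 (adjusted p = 0.11) or low glucose replicate 2 (0.11), and after median centring (0.057).

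**Figure D2:**
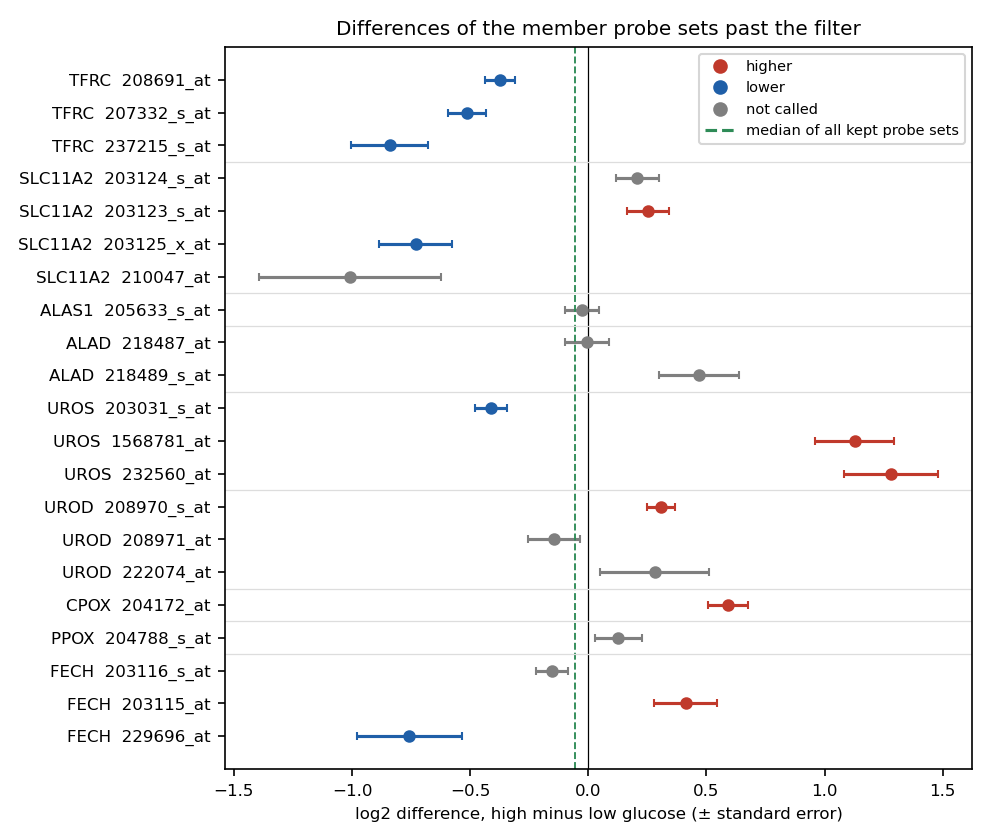
Log2 difference of high minus low glucose for the 21 member probe sets past the filter (x axis), with bars for the standard error and colours for the call. The dashed line marks the median of all tested probe sets at -0.06. The 3 TFRC probe sets lie left of 0, CPOX lies right of it at 0.59, and UROS spans -0.41 to 1.28.

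The disagreement between probe sets of a gene was itself tested, by setting the log2 difference of each probe set against that of the other tested probe sets of its gene. This test was added after the values had been seen, and it treats the probe sets of an array as independent. Of the 18 member probe sets it covered, 7 were called, beside 25% of all 17084 probe sets covered. They were the 3 of UROS, FECH 203115_at and 229696_at, and both of ALAD. Both ALAD calls are the same contrast with opposite sign, and contrasts within a gene depend on one another. The 7 calls are therefore not separate results. The brightest UROS probe set stood -1.62 log2 units from the others (adjusted p = 4.4e-04), and the contrast kept its call under all alternatives run. FECH 203115_at stood 0.87 above and 229696_at stood at -0.89 against the rest of the gene (adjusted p = 0.0054 and 0.0049). The ALAD pair differed by 0.47 (adjusted p = 0.037), a call that ended after median centring (0.059), with no filter (0.22) and without each array in turn (0.10 to 0.21). No TFRC, SLC11A2 or UROD probe set was called in this test with the settings above, but some were under alternatives. UROD 208971_at was called after quantile normalization (adjusted p = 0.036) and cyclic loess (0.035) and without low glucose replicate 1 (0.023). A stricter signal filter leaves fewer probe sets to compare, and there TFRC 237215_s_at (adjusted p = 0.037) and 3 SLC11A2 probe sets were called, 203125_x_at with the lowest value (0.0010). SLC11A2 210047_at was called without high glucose replicate 2 (0.021).

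Most of the within-gene calls depended on single arrays. Without high glucose replicate 1 only UROS 203031_s_at was called, which is 1 probe set. Without high glucose replicate 2 there were 4 calls, and without low glucose replicate 2 there were 2. The members with at least 3 tested probe sets were TFRC, SLC11A2, UROS, UROD and FECH. Among these, calls in both directions within a gene were found for UROS, SLC11A2 and FECH. The share over all 2784 genes with at least 3 tested probe sets was 15.3%. Of UROS, SLC11A2 and FECH, only UROS had calls in both directions without each array in turn.

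For TFRC and ALAS1, genes were ranked by the distance between log2 signals of the brightest probe sets, centred on the mean over the 4 arrays. Nearest to TFRC were CHMP2A, NUDCD3 and ITFG2, at distances of 0.013, 0.015 and 0.018 log2 units. CHMP2A had 1404 and 1435 in high glucose, against 1903 and 1804 in low glucose. Nearest to ALAS1 were TRIM27, XPNPEP1 and PIMREG, at 0.013, 0.013 and 0.014. TRIM27 had 903 and 915 in high glucose, against 922 and 924 in low glucose. With 4 arrays and 12242 genes, close neighbours are common, and the ranking is a description.

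Other genes of iron and heme handling were counted from 5 lists, by the brightest tested probe set of each gene. Over the lists, 63 genes were measured, of which 22 were higher in high glucose, 21 were lower and 20 were not called, beside 23.8% higher and 32.6% lower over all genes. After median centring 12 were lower. The median over the 63 was -0.02 log2 units, beside -0.10 over all genes.

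Among genes of iron storage, export and sensing, 2 of 10 measured genes were higher and 3 lower, with a list median of -0.35 log2 units. FTL, the ferritin light chain, averaged 5521 ± 154 in high and 11094 ± 492 in low glucose (SD, n = 2 each), a fall of 2.01-fold, and its other tested probe set also fell. Its probe set carries the suffix _x_at and ferritin has processed pseudogenes, so its signal may be shared. ACO1, the cytosolic aconitase that doubles as an iron-regulatory protein, was higher by 0.60 ± 0.08 (log2) at the brightest probe set and lower at the other tested one, which fell by 1.00. FBXL5, the iron-sensing ubiquitin ligase subunit, rose by 0.25 and had a second tested probe set that fell by 0.49. HFE, counted among the 3 lower, passed the filter only through low glucose, so no fold is given. Its called probe set, which carries the suffix _x_at, had 26.1 and 37.8 in high glucose, against 63.4 and 80.4 in low glucose. The other tested HFE probe set stood at 0.23 and was not called, and the 2 differed in the within-gene test (adjusted p = 0.044). PCBP1, an iron chaperone, fell 1.30-fold and was not called after median centring.

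In the list of iron reduction and other iron transport, 1 of 9 genes was higher and 5 were lower, with a median of -0.38. MCOLN1, a lysosomal cation channel that passes iron, averaged 305 ± 21 in high and 723 ± 14 in low glucose. SLC39A14, a zinc and iron importer, fell 1.72-fold. SLC22A17, the lipocalin receptor, fell 3.59-fold. STEAP3, the endosomal ferrireductase that works with TFRC and SLC11A2, fell 1.30-fold, with its other tested probe set at 0.25 and not called, and STEAP1 rose 1.26-fold. The STEAP3 fall was not called after median centring.

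Mitochondrial iron import and iron-sulfur cluster assembly had 10 of 19 genes higher and 3 lower, with a median of 0.27 log2 units. SLC25A37, counted among the 3 lower, stood at -0.53 in its brightest probe set, but 2 of its 8 other tested probe sets were called higher. After median centring 13 were higher and 2 lower. NFS1, the cysteine desulfurase that supplies sulfur for the clusters, averaged 494 ± 26 in high and 151 ± 33 in low glucose, a rise of 3.32-fold, and its other tested probe set also rose. BOLA3 and ISCA2, late-acting assembly factors, rose 1.80-fold and 1.69-fold. CIAO1, of the cytosolic assembly machinery, rose 1.83-fold and IBA57 2.13-fold in their brightest probe sets, and none of their other tested probe sets was called. The poly-A spikes differed in the same direction, 3.84-fold, and their bearing on this list was not tested.

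Of the porphyrin transport and partner list, 2 of 8 genes were higher and 4 lower (median -0.19), and 1 was lower after median centring. TSPO, an outer mitochondrial membrane protein that binds porphyrins, fell 1.60-fold. CLPX, a mitochondrial unfoldase that activates ALAS, rose 1.28-fold. SLC25A38, the glycine carrier that feeds heme synthesis, fell 1.28-fold, and SLC25A39 rose 1.39-fold. The SLC25A38 call was lost after median centring, and that of SLC15A2, a peptide carrier that passed the filter only through low glucose (mean 24.4 in high against 47.4 in low glucose), after each of the 3 normalizations.

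Heme breakdown, export and use had 7 of 17 genes higher and 6 lower, with a median of 0.14. HMOX1, the inducible heme oxygenase, averaged 89.2 ± 7.2 in high and 431 ± 17 in low glucose, a fall of 4.84-fold (-2.27 ± 0.12 log2 units, adjusted p = 1.6e-05). BLVRB, a biliverdin reductase, fell 1.85-fold. COX15, which acts in making the heme A of cytochrome oxidase, rose 1.74-fold. HCCS, which attaches heme to cytochrome c, rose 1.72-fold, and SLC48A1, a heme transporter of endosomes and lysosomes, rose 1.83-fold.

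**Figure D3:**
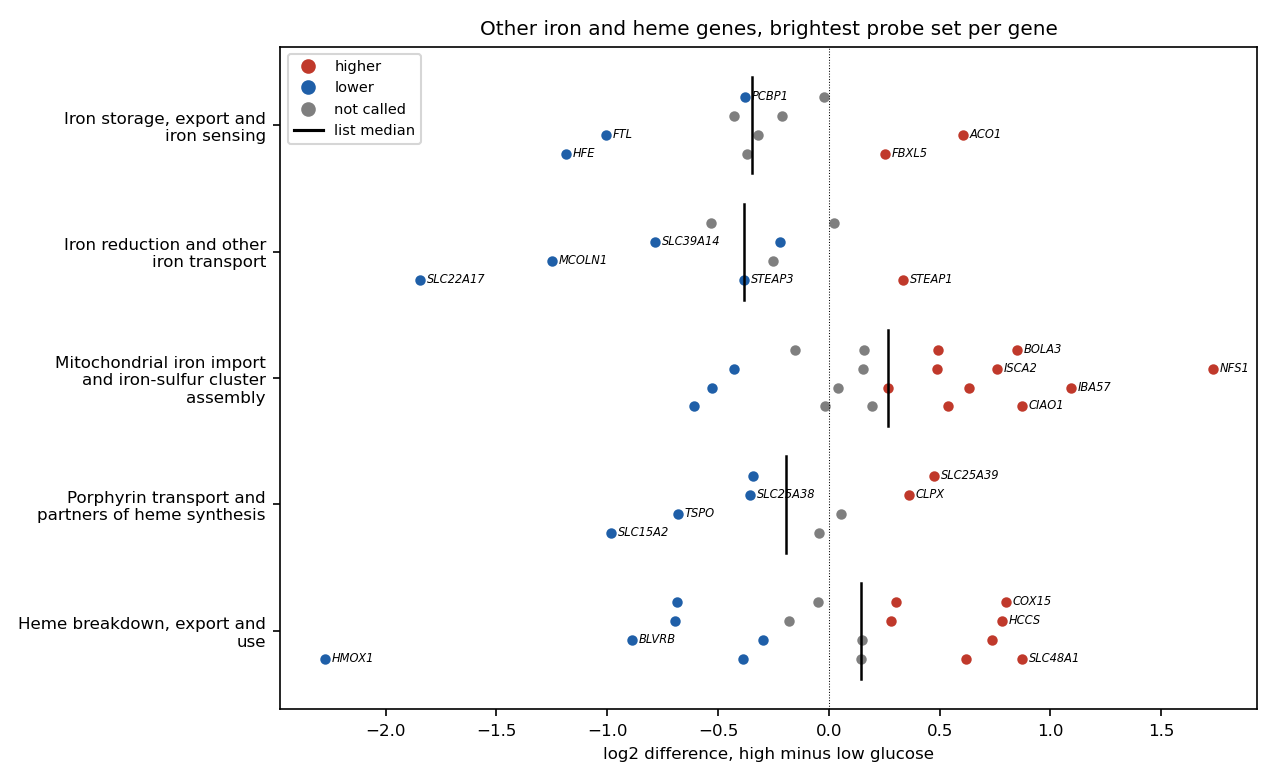
Log2 difference of high minus low glucose (x axis) for 63 genes of 5 iron and heme lists, each point the brightest tested probe set of a gene, coloured by call, with bars at the list medians. HMOX1 lies farthest left at -2.27 and NFS1 farthest right at 1.73, and the medians run from -0.38 to 0.27.

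Markers of other cell types were mostly dim. Of 14 erythroid genes 9 had a single-gene probe set and 4 passed the filter, HBB, AHSP, SLC4A1 and TFR2, none above 65.3 signal units on any array. HBB passed only through high glucose, with 65.3 and 38.5 there, against 23.6 and 42.8 in low glucose. SLC4A1 passed only through low glucose, with 41.2 and 18.8 in high glucose, against 44.2 and 51.7 in low glucose. The erythroid sum was 189 and 217 on the high glucose arrays and 283 and 292 on the low glucose arrays. Of 6 hepatocyte genes 5 had a probe set and 1 passed the filter, with sums of 80.4 to 135 in high against 140 to 148 in low glucose. None of the 5 leukocyte genes with a probe set passed, with sums of 38.2 to 93.1 in high against 70.4 to 95.0 in low glucose. Of 7 fibroblast genes 2 passed, with sums of 562 and 564 in high glucose, against 365 and 414 in low glucose. The part of these differences in the member results was not tested.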

How the data were processed

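Per the labels, biotin-labelled cRNA of 4 HEK293 samples was hybridised to 1 array each. The authors deposited 1 linear signal intensity per probe set and array. GCOS, the Affymetrix array software, is named in the submitters' processing notes. No source used here gives its version or settings. The 2% trimmed mean was about 200.02 on each array, so the deposited intensities were already scaled.

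GEO's platform annotation named a single gene for 41097 of 54675 probe sets, and symbols were updated through RefSeq gene identifiers. After 62 control probe sets were left out, signals were log2-transformed with no pseudocount. Probe sets at or above the median mean signal (32.9) were kept, 27307 in all, and compared with limma 3.58.1 in R 4.3.3 (lmFit, eBayes with an intensity trend, two-sided, Benjamini-Hochberg over all kept probe sets, threshold 0.05). Differences are high minus low glucose. The within-gene test is limma's diffSplice. The scripts were tested on simulated data.

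Members, lists, markers and motifs were chosen with earlier results of these data known. Named were all member probe sets, the 5 called genes with the largest absolute difference in each list, and the 3 genes nearest to TFRC and to ALAS1. SLC25A37 was named in addition, for its divided probe sets. Deviations of same-numbered arrays from their group means correlated with r = 0.008 over kept probe sets, so the numbers were not taken as pairs. Alternatives covered normalization, filter, pseudocount, trend, replicate block, leaving out each array, and 1 probe set per gene. The number of arrays limits the precision. Genes of the pathway and the lists that have no tested single-gene probe set were not analysed here.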

Additional observations from a re-analysis of the deposited data

How the results depend on the processing

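The 21 member probe sets gave 256 values under the alternatives, of which 222 kept direction and side of the threshold, 16 lost a call, 9 gained a call and 9 turned sign without being called. The sign turns were ALAS1 (0.14), ALAD 218487_at (0.17), UROD 208971_at (0.024) and FECH 203116_s_at (0.016) after median centring, and ALAD 218487_at after quantile normalization (0.057) and cyclic loess (0.028). Leaving out each array in turn, ALAD 218487_at ran from -0.018 to 0.0087 and UROD 208971_at from -0.32 to 0.027. With 1 probe set per gene, 2970 genes were higher and 4079 lower, and 2 members were higher and 2 lower, since fewer features enter that fit. The 21 pathway list genes called lower became 12 after median centring, which shifts all differences up. Of the member probe sets called against the rest of their gene, 7 in all, 4 were called with no filter and between 1 and 6 with 1 array left out. With the replicate block, 5 member probe sets were higher and 7 lower. SLC11A2 203123_s_at lost its call there (adjusted p = 0.060) and 210047_at gained one (adjusted p = 0.018). In the within-gene test the block ended the ALAD call (adjusted p = 0.078) and 3 SLC11A2 probe sets gained one (adjusted p = 0.023 to 0.049). With 1 array left out, the lone array of its group was assumed to vary like the other group. Signal over background limits the dim probe sets, since no detection calls were used.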
